A study of Mus musculus with 90 samples.

Results

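10 genes that mark neural progenitors and radial glia were followed here in every library of a differentiation series of J1 mouse embryonic stem cells. They are Sox1, Sox11, Sox21, Nes, Fabp7, Zic1, Zic2, Msi1, Mir9-3hg and Kirrel2, 10 of the 24984 genes in the count table of the neural series. They were chosen by name with earlier results on their counts over lines and days known, so their courses over days within a line are described without a test. All 10 passed the filter on low counts in both series of the lines CaPS, mCaPS, KO and WT. For CaPS-R, 9 of the genes were used and Sox21 was not used.

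The cells carried different forms of CBX7, a chromodomain protein of Polycomb repressive complex 1. The lines are labelled CBX7-CaPS, CBX7-mCaPS, CBX7-CaPS-R, CBX7 KO and WT, and the sources used here do not spell out CaPS, the prefix m or the suffix R. Stem cells of every line were grown with LIF on a layer of mouse feeder fibroblasts and freed of them before use. In the neural series they were aggregated without LIF for 4 days, given 5 µM retinoic acid and collected on days 6 and 8. In the other series hanging drops gave embryoid bodies in serum without retinoic acid, collected on days 6 and 10. Day 0 is the stem cell culture. Each of the 30 groups had 3 libraries of ribosomal-RNA-depleted total RNA. Whether the 3 were separate cultures, and how many clones a line had, is not given, so p-values measure only the spread between these libraries.

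When stem cells turn into neuroectoderm they switch on transcription factors of the SOX and ZIC families, which hold the progenitor state and prepare neuron formation. The elongated progenitors called radial glia then carry a typical set of structural and RNA-binding proteins. Polycomb complexes are known to keep many such developmental genes silent in stem cells.

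The sequences below show what the non-coding member carries and how the start regions of the genes differ. Mir9-3hg is the host transcript of a microRNA 9 hairpin at GRCm38.p6 chr7:79505264-79505353 on the plus strand. The hairpin, with its mature strands in capitals, and the mature strands, with the seed (bases 2 to 8) in capitals, are given from RefSeq.

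Mir9-3 hairpin: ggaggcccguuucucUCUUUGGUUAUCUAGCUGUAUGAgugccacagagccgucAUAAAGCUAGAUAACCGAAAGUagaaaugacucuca
mmu-miR-9-5p: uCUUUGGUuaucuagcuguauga
mmu-miR-9-3p: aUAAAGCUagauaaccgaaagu

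The loci Mir9-1 on chromosome 3 and Mir9-2 on chromosome 13 give the same mature strands, so the host transcript measured here is only one source of this microRNA. The libraries were not made for small RNA: the Mir9-3 hairpin itself had 0 to 60 counts per library in the neural series, against 0 to 2587 counts for Mir9-3hg.

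Promoters were at hand in RefSeq for 8 of the 10 genes. The 250 bases before the start held 4 to 29 CG dinucleotides (the motif CG, which reads the same on both strands), against a median of 6 over 32851 promoters. Sox1 had 29, and 6.78% of all promoters had as many, while Zic1 had 27 and Mir9-3hg 25. Fabp7 and Kirrel2 had 4 each, a number reached by 62.2% of all promoters. The CG-densest of the 8, one of the CG-poorest and the host of miR-9 are shown 5′ to 3′ in the sense of the gene, with each CG in capitals.

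Sox1, GRCm38.p6 chr8:12395269-12395518, plus strand: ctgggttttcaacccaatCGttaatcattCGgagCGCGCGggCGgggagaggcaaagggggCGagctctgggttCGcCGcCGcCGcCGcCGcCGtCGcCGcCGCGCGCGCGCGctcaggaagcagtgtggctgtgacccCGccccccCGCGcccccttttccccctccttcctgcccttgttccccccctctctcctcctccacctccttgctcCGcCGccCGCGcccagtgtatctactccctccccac
Mir9-3hg, GRCm38.p6 chr7:79499776-79500025, plus strand: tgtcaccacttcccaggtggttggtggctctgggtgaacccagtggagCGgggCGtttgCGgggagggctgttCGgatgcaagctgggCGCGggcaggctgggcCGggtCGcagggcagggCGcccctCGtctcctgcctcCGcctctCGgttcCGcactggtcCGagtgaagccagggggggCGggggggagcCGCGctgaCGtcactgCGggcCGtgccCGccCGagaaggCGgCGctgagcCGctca
Fabp7, GRCm38.p6 chr10:57784673-57784922, plus strand: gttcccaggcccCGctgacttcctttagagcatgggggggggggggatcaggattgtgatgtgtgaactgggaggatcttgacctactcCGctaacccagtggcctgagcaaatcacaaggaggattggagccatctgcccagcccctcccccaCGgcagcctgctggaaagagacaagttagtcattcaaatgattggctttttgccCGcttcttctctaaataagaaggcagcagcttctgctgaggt

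Libraries of CaPS, mCaPS, KO and WT held 11830340 to 59295504 counts in the neural series and 10601858 to 55886291 in the embryoid series. The precursor of ribosomal RNA, Rn45s, took 4.24% to 50.3% of the counts in the neural series and 2.73% to 88.7% in the embryoid series. Of the counts from 1 to 20, 76.4% to 90.5% per neural library were even numbers; how mates of a read pair were counted is not given. The 6 embryoid libraries of CaPS and WT numbered 1 stood apart, with 42.1% to 43.5% even counts and Gapdh at 3.47 to 10.3 CPM, where the other 12 embryoid libraries of these lines had 51.1 to 496 CPM. The embryoid mCaPS and KO libraries had 12.8 to 31.3 CPM of Gapdh, overlapping neither range. In embryoid comparisons of mCaPS or KO with WT or CaPS, line and library set thus cannot be told apart. Cbx7 RNA was not absent from the KO libraries: on neural day 0 it stood at 112 to 137 CPM in KO, against 157 to 191 CPM in WT. The sources used here do not say which part of the gene was altered, so the count over the whole gene does not check the KO label.

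In WT cells the 10 genes followed different courses through the neural series. Levels are CPM, read counts scaled to library size by the TMM method, as mean ± SD of 3 libraries unless single libraries are given. Sox1, an early neuroectoderm SOX factor, averaged 2.57 ± 0.60 CPM on day 0, 89.7 ± 7.05 on day 6 and 56.6 ± 5.96 on day 8. Zic1, a zinc finger factor of neural progenitors, had 3.53, 1.35 and 0.653 CPM in the libraries of day 0, 85.8, 150 and 89.6 on day 6 and 202, 96.9 and 124 on day 8. Msi1, an RNA-binding protein of neural stem cells, averaged 17.5 ± 7.41, 232 ± 23.8 and 417 ± 27.9 CPM. These 3 genes were thus already high by day 6, and Sox1 was the one of them that was lower on day 8 than on day 6 in every WT library.

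A second group appeared between days 6 and 8. Fabp7, the fatty acid-binding protein of radial glia, had 0.598, 0.704 and 0.827 CPM in the WT libraries on day 6 and 46.9, 6.86 and 28.04 CPM on day 8. Mir9-3hg, the miR-9 host transcript, had 0.816, 0.329 and 0.382 CPM on day 6 and 76.8, 20.4 and 39.9 CPM on day 8. Kirrel2, a cell adhesion protein related to nephrin, was already expressed in stem cells, with 29.6, 34.6 and 27.9 CPM on day 0. It had 0.707, 1.34 and 0.604 CPM on day 6 and 85.6, 15.7 and 16.1 CPM on day 8, so it was lost and regained within a span of 8 days. Day 8 levels of these 3 genes did not overlap those of day 6 in WT.

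The remaining genes were present at all 3 stages. Sox11, a SOX factor of newly formed neurons, stood at 69.9 ± 21.8, 428 ± 85.9 and 1612 ± 263 CPM on days 0, 6 and 8 of the WT neural series. Sox21, which counteracts the progenitor SOX factors, stood at 4.37 ± 1.77, 16.9 ± 10.1 and 34.9 ± 8.88 CPM. Nes, the intermediate filament nestin, stood at 117 ± 86.6, 284 ± 86.0 and 360 ± 105 CPM. Zic2, needed for forebrain formation, stood at 48.3 ± 28.3, 65.4 ± 4.91 and 61.4 ± 15.2 CPM, with overlapping libraries between all 3 days. Per kilobase of gene length on day 8 in WT, Msi1 was highest at 269 ± 17.96 RPKM, followed by Sox11 at 191 ± 31.2 and Nes at 58.8 ± 17.2 RPKM. Zic1 at 42.1 ± 16.2, Fabp7 at 35.8 ± 26.3 and Zic2 at 20.7 ± 5.13 RPKM came next, and each of them lay within the SDs of the gene before it. Sox1 at 14.0 ± 1.48, Kirrel2 at 12.5 ± 12.9, Mir9-3hg at 11.5 ± 7.20 and Sox21 at 9.19 ± 2.34 RPKM closed the order, and these 4 likewise lay within the SDs of their neighbours among them.

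**Figure D1:**
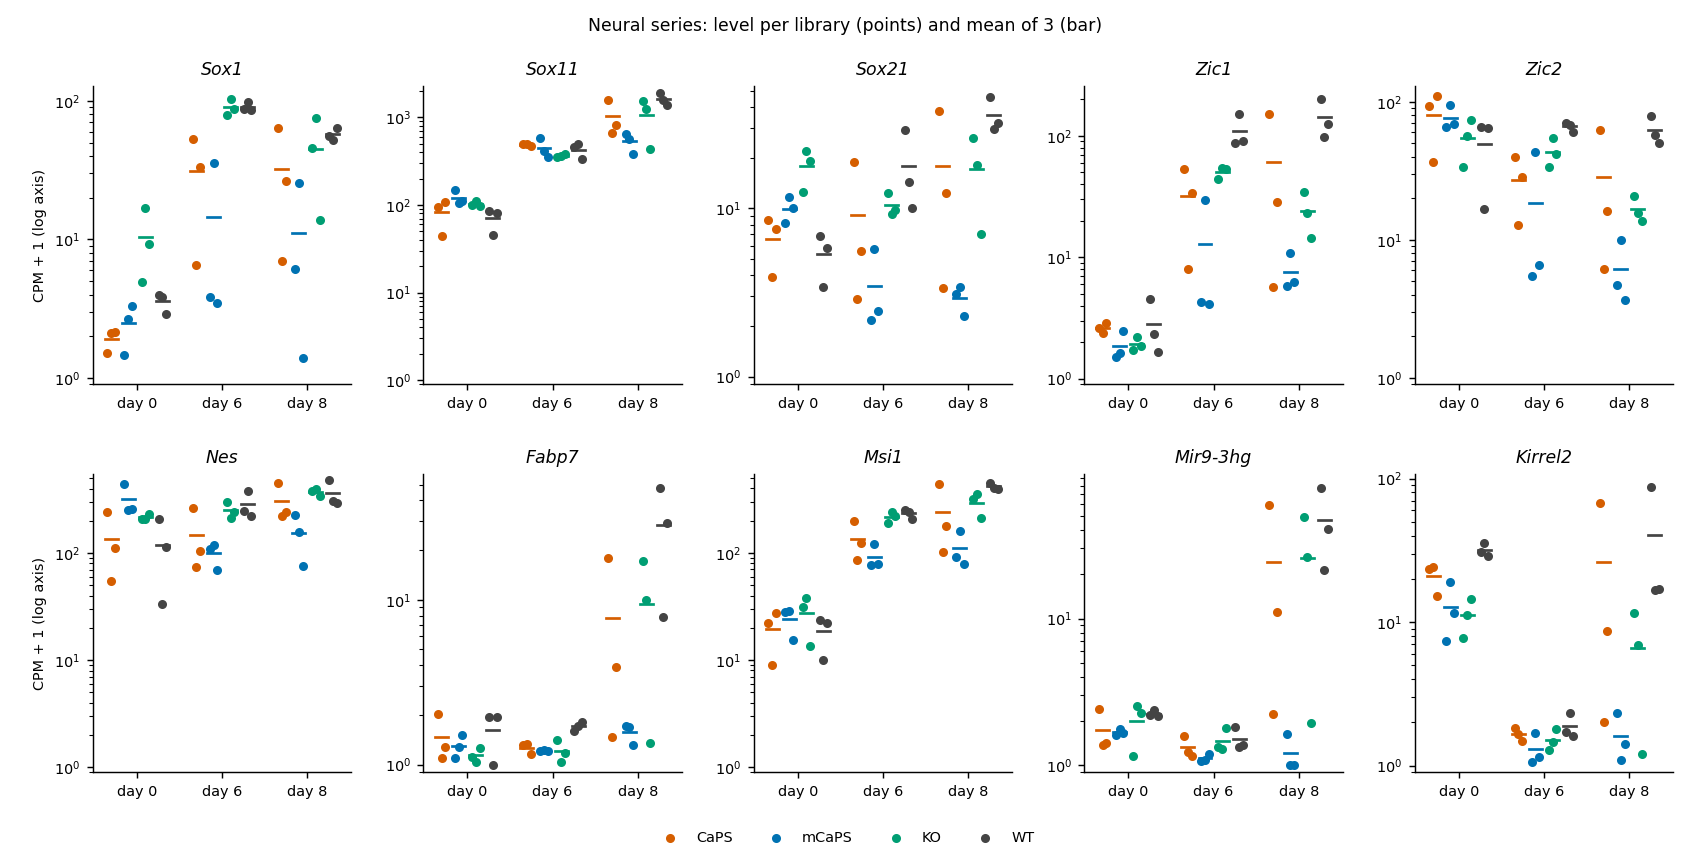
Level of each gene in every library of the neural series (CPM + 1, log axis) by day, with CaPS, mCaPS, KO and WT from left to right; points are libraries and bars the mean of 3. On day 8 the 3 mCaPS libraries lie below the 3 WT libraries in each of the 10 panels.

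Neural day 8 separated mCaPS from WT most. Of the 10 genes, 8 were lower in mCaPS cells and none higher (edgeR quasi-likelihood test, Benjamini-Hochberg adjusted p below 0.05), where 9.06% of all 17818 genes tested were lower and 9.39% higher. All 3 mCaPS libraries lay below all 3 WT libraries for each of the 10 genes, as they did for 18.3% of all genes. The median log2 fold change of the 10 genes was -3.88, against 0.00 over all genes. CaPS against mCaPS on embryoid day 10 was in view when the genes were picked, and which other comparisons were is not recorded, so these p-values set a difference against the spread between libraries and are not independent support. Same-numbered libraries of this day deviated together in CaPS and WT (correlation r 0.335 to 0.589) and in mCaPS and KO (0.279 to 0.527). In mCaPS and WT r was -0.0284 to 0.166. Whether these pairs of lines were handled as separate sets is not given, and a part of handling in differences across them was not tested.

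The genes that appear late in WT were nearly missing from mCaPS. Mir9-3hg had 0.628, 0 and 0 CPM in mCaPS (30, 0 and 0 counts), against 76.8, 20.4 and 39.9 CPM in WT, with a fitted log2 fold change of -7.63 ± 1.37 (SE, adjusted p = 0.000879). The size of that fitted value rests on 1 library: without mCaPS replicate 1 both remaining libraries are at 0 counts and the fit gives -13.7, which is no bound. Kirrel2 had 1.32, 0.096 and 0.42 CPM in mCaPS, against 85.6, 15.7 and 16.1 CPM in WT (log2 fold change -5.96 ± 1.20, adjusted p = 0.00189). Fabp7 had 0.711, 0.696 and 0.323 CPM in mCaPS, against 46.9, 6.86 and 28.04 CPM in WT (log2 fold change -5.54 ± 1.24, adjusted p = 0.00366). In mCaPS none of these 3 genes passed 1.32 CPM in any day 8 library, while WT had at least 6.86 CPM of each.

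Zic1, Sox21 and Zic2 were lower in mCaPS as well. Zic1 had 4.75, 9.77 and 5.30 CPM in mCaPS, against 202, 96.9 and 124 CPM in WT (log2 fold change -4.41 ± 0.92, adjusted p = 0.00233). Sox21 had 2.09, 2.40 and 1.29 CPM in mCaPS, against 45.04, 28.5 and 31.2 CPM in WT (log2 fold change -4.17 ± 0.80, adjusted p = 0.00136). Zic2 had 3.70, 8.95 and 2.65 CPM in mCaPS, against 78.5, 56.5 and 49.3 CPM in WT (log2 fold change -3.58 ± 0.78, adjusted p = 0.00319). Zic2 overlapped between all days in WT, whereas in mCaPS the day 8 libraries lay below those of day 0, which had 64.4, 93.9 and 67.6 CPM.

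Sox11 and Msi1, the most abundant of the 10 on day 8 in WT, fell by less. Sox11 had 643, 568 and 379 CPM in mCaPS, against 1896, 1563 and 1376 CPM in WT (log2 fold change -1.60 ± 0.35, adjusted p = 0.00347), and was still higher on day 8 than on day 0 in mCaPS. Msi1 had 91.0, 160 and 78.1 CPM in mCaPS, against 449, 404 and 397 CPM in WT (log2 fold change -1.93 ± 0.47, adjusted p = 0.00597). Without mCaPS replicate 3 the adjusted p of Msi1 was 0.05003, just above the threshold. Sox1 and Nes did not pass it by edgeR without a replicate block, while DESeq2's Wald test called Sox1 (adjusted p = 0.0443) and not Nes (0.0559). Sox1 had 5.15, 24.7 and 0.388 CPM in mCaPS, against 54.8, 51.7 and 63.2 CPM in WT (adjusted p = 0.0773), and without mCaPS replicate 2, the highest of the 3, its log2 fold change was -4.28 with adjusted p = 0.0154. Nes had 225, 155 and 75.1 CPM in mCaPS, against 481, 308 and 292 CPM in WT (adjusted p = 0.0867).

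**Figure D2:**
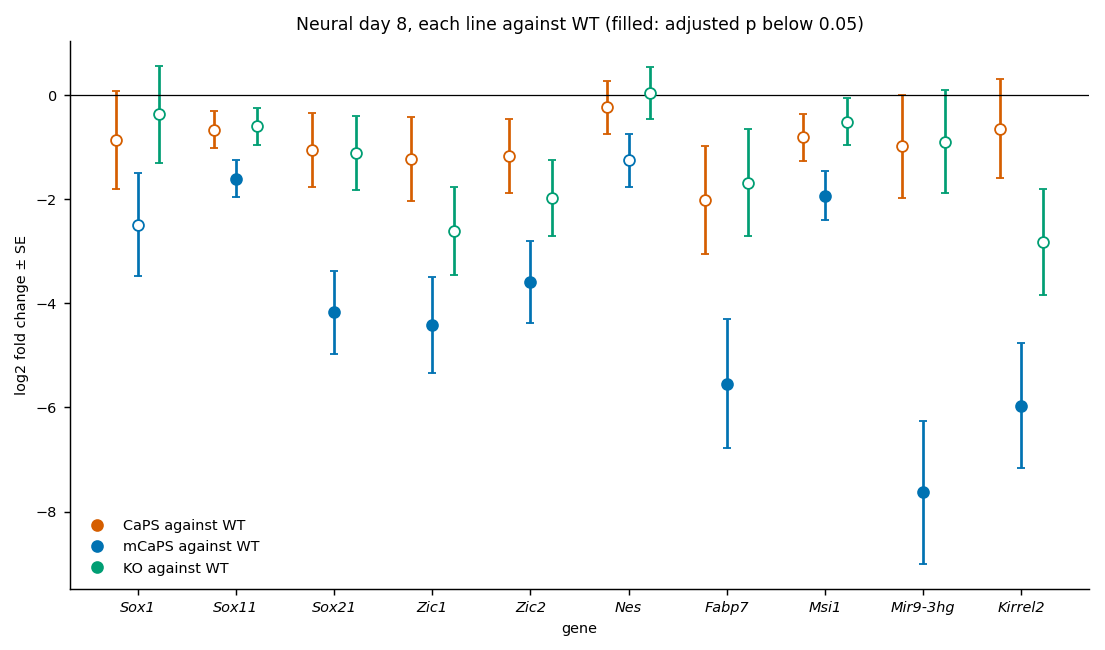
Log2 fold change ± SE of each gene on neural day 8 for CaPS, mCaPS and KO, each against WT; filled points have an adjusted p below 0.05. The filled points are 8 mCaPS values between -1.60 and -7.63, and none of the CaPS or KO points is filled.

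Other genes of the same state moved with them. Of 26 other neural progenitor genes, 14 were lower and Lhx2 was higher in mCaPS than in WT on neural day 8, with a median log2 fold change of -1.95. Zic4, the neighbour of Zic1, averaged 0.279 CPM in mCaPS and 9.83 CPM in WT (adjusted p = 0.00106). Sox2, the core SOX factor of neural progenitors, averaged 22.6 CPM in mCaPS and 219 CPM in WT (adjusted p = 0.00187). The ventral factors Olig2 and Nkx6-1 did not pass this test (adjusted p = 0.900 and 0.929). Of 12 tested relatives of the 10 genes by family, 7 were lower and 1 higher: Sox4, a relative of Sox11, averaged 258 CPM in mCaPS and 597 CPM in WT (adjusted p = 0.00468), and Kirrel, a relative of Kirrel2, averaged 134 CPM in mCaPS and 67.8 CPM in WT (adjusted p = 0.0142). All 12 neuron genes were lower in mCaPS, where their summed level was 36.3 to 156 CPM per library, against 1202 to 2408 CPM in WT. Map2, a dendrite protein, averaged 16.1 CPM in mCaPS and 310 CPM in WT (adjusted p = 0.000468).

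Genes of other lineages stood higher in the same mCaPS libraries. Of 10 mesoderm and cardiac genes, 5 were higher and none lower, and their summed level was 306 to 512 CPM in mCaPS, against 15.0 to 49.2 CPM in WT. The 5 were Gata4, Hand1, Mef2c, Kdr and Tnnt2, and Gata4, a heart and endoderm factor, averaged 290 CPM in mCaPS and 20.97 CPM in WT (adjusted p = 0.00462). Of 6 endoderm genes, Gata6 and Ttr were higher, with sums of 135 to 307 CPM in mCaPS and 17.9 to 65.2 CPM in WT. Of 10 feeder fibroblast genes, the matrix genes Col1a1, Col3a1, Postn and Fbln2 were higher, with sums of 675 to 2450 CPM in mCaPS and 64.1 to 222 CPM in WT, while Ccl7 stayed near 0 at means of 0.0431 CPM in mCaPS and 0.0916 CPM in WT. Of 8 pluripotency genes, Tdgf1 and Tfcp2l1 were higher. The part of other cells in the fall of the progenitor genes was not tested, and in bulk RNA fewer cells of a type and less RNA per cell cannot be told apart.

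Neighbouring genes and targets were set beside the members. Zic1 and Zic4, Zic2 and Zic5, and Kirrel2 and Nphs1 lie head to head in the mm10 coordinates of the count tables, with 3173, 9726 and 2543 bases between their starts. All 3 partners were lower in mCaPS than in WT on neural day 8: besides Zic4, Nphs1 averaged 0.580 CPM in mCaPS and 10.5 CPM in WT (adjusted p = 0.00224), and Zic5 averaged 1.72 CPM in mCaPS and 16.3 CPM in WT (adjusted p = 0.00711). Among genes known as miR-9 targets, Rest, the repressor of neuron genes, was higher, at 113 CPM in mCaPS and 70.3 CPM in WT (log2 fold change 0.68 ± 0.18, adjusted p = 0.0110). Actl6a, Nr2e1 and Hes1 did not pass the threshold.

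The difference between mCaPS and WT was smaller on day 6 and not called on day 0. On neural day 6 Zic1 and Sox21 were lower in mCaPS, 2 of 10 where 0.87% of all genes were lower, and for 8 of the 10 all mCaPS libraries lay below all WT libraries, as for 15.9% of all genes. Zic1 had 3.26, 28.9 and 3.15 CPM in mCaPS, against 85.8, 150 and 89.6 CPM in WT (log2 fold change -3.20 ± 0.86, adjusted p = 0.0443). Sox21 had 1.18, 4.76 and 1.45 CPM in mCaPS, against 28.3, 13.3 and 9.13 CPM in WT (log2 fold change -2.78 ± 0.75, adjusted p = 0.0448). mCaPS replicate 2 was the highest of its group for 8 of the 10 genes, and without it 4 genes were called, Sox1, Sox21, Zic1 and Zic2. Leaving out any other mCaPS or WT library of that day left none called. The share of all genes called in these fits is not given here, and the 0.87% belongs to the fit of all libraries. Sox11 did not separate the lines on day 6, with 575, 415 and 352 CPM in mCaPS and 453, 497 and 332 CPM in WT.

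The change from day 0 to day 8 was also compared between the lines. It was lower in mCaPS than in WT for Sox11, Sox21, Zic2, Nes, Msi1, Mir9-3hg and Kirrel2, 7 of 10 genes where 4.82% of all genes were lower and 4.68% higher. Sox11 differed by a log2 fold change of -2.39 ± 0.50 (adjusted p = 0.00404) and Sox21 by -5.21 ± 1.06 (adjusted p = 0.00356). On day 0 itself no member was called by edgeR or DESeq2, where edgeR called 3.02% of all genes in either direction, and 2 members had an unadjusted p below 0.05. Nes had 441, 251 and 258 CPM in mCaPS, against 206, 32.7 and 113 CPM in WT, and Kirrel2 had 6.40, 18.01 and 10.6 CPM in mCaPS, against 29.6, 34.6 and 27.9 CPM in WT. Feeder fibroblast genes summed to 111 to 198 CPM in mCaPS on that day, against 429 to 4175 CPM in WT, and their part in the day 0 levels was not tested.

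KO cells differed less clearly from WT. None of the 10 genes was called on neural day 8, where 0.0168% of all genes were higher and 0.0337% lower in KO by edgeR. By unadjusted p below 0.05, 3 of the 10 passed, and by DESeq2's Wald test none. The 3 KO libraries all lay below the WT libraries for Zic1, Zic2, Sox21, Msi1 and Kirrel2, 5 of 10 genes where 5.49% of all genes did. Zic1 had 33.7, 22.3 and 13.5 CPM in KO, against 202, 96.9 and 124 CPM in WT (adjusted p = 0.292). Zic2 had 19.7, 14.7 and 12.6 CPM in KO, against 78.5, 56.5 and 49.3 CPM in WT (adjusted p = 0.377). Sox1, Sox11, Nes, Fabp7 and Mir9-3hg overlapped between the lines. KO replicate 3 was the lowest of its group for all 10 genes, for example with 0.938 CPM of Mir9-3hg beside 47.8 and 25.3 CPM in the other KO libraries. Among the lists of other genes, Ptn, a secreted growth factor of radial glia, was the one gene called on that day, at 8.63 CPM in KO and 54.3 CPM in WT (adjusted p = 0.00875).

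On the earlier neural days no member was called between KO and WT either. On day 6 Sox1 had 78.6, 102.9 and 86.9 CPM in KO, against 86.0, 97.8 and 85.3 CPM in WT. Zic1 had 43.4, 53.3 and 52.1 CPM in KO, against 85.8, 150 and 89.6 CPM in WT, and Zic1, Zic2 and Fabp7 were the 3 of 10 genes with all KO libraries below all WT libraries, where 10.1% of all genes were. Neither tool, edgeR nor DESeq2, called a member on day 6, where edgeR called 0.0281% of all genes, and no member had an unadjusted p below 0.05. On day 0 Sox21 had 11.5, 21.1 and 18.2 CPM in KO, against 5.87, 2.42 and 4.82 CPM in WT, without overlap (adjusted p = 0.112). Sox1 and Sox11 also lay higher in all KO libraries of day 0, 3 of 10 genes where 11.1% of all genes did. No member was called on day 0 by edgeR, which called 5.52% of all genes, or by DESeq2, and 1 had an unadjusted p below 0.05. In the stem cells of the embryoid series Sox21 had 10.7, 17.4 and 23.4 CPM in KO, against 4.21, 5.09 and 4.17 CPM in WT (adjusted p = 0.293).

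Set against KO, mCaPS was lower still. On neural day 8 Mir9-3hg, Sox21 and Fabp7 were lower in mCaPS, 3 of 10 genes where 3.95% of all genes were lower. Mir9-3hg had 0.628, 0 and 0 CPM in mCaPS, against 47.8, 25.3 and 0.938 CPM in KO (log2 fold change -6.75 ± 1.32, adjusted p = 0.00442). Same-numbered libraries of mCaPS and KO deviated together, weakly on neural day 6 (correlation r 0.113 to 0.152) and more on day 8 (0.279 to 0.527). Blocks within such pairs of lines were chosen after seeing the data. With the replicate number as a block within such pairs, 9 of the 10 genes were lower in mCaPS on day 8, Zic1 being the exception, where 13.8% of all genes were lower. By the same block 6 genes were lower on day 6 (Sox1, Sox21, Nes, Zic1, Zic2 and Msi1), where 10.1% of all genes were lower. The fit without a block called none of the 10 on day 6, where 1.64% of all genes were lower, with 5 below an unadjusted p of 0.05 and none called by DESeq2. Without the block, the call of Fabp7 was lost on leaving out any mCaPS or KO library of that day but KO replicate 3, and the highest adjusted p was 0.202. The call of Sox21 was lost in 4 of these 6 fits, all but those without mCaPS replicate 2 or KO replicate 3, while Mir9-3hg was called in all 6.

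The CaPS libraries kept one order across the genes. On neural day 8 replicate 1 was the highest and replicate 2 the lowest CaPS library for all 10 genes. Zic1 had 149, 4.67 and 27.6 CPM in CaPS, against 202, 96.9 and 124 CPM in WT, and Mir9-3hg had 58.3, 1.23 and 10.1 CPM in CaPS, against 76.8, 20.4 and 39.9 CPM in WT. The groups overlapped for all 10 genes and none was called by edgeR or by DESeq2's Wald test; none reached an unadjusted p below 0.05 by edgeR, and 0.0112% of all genes were called lower. The mesoderm and cardiac genes summed to 16.4, 461 and 338 CPM in these CaPS libraries and the neuron genes to 2225, 192 and 542 CPM, so that they ran in opposite order across the 3 libraries. Same-numbered CaPS and WT libraries deviated together, and a block on that number was chosen after seeing the data. With that block Msi1 (log2 fold change -1.07 ± 0.27, adjusted p = 0.0423) and Fabp7 (-2.82 ± 0.66, adjusted p = 0.0314) were lower in CaPS, 2 of 10 genes where 0.774% of all genes were lower. On day 6 all CaPS libraries lay below all WT libraries for Sox1, Zic1, Zic2, Msi1 and Fabp7, 5 of 10 genes where 5.88% of all genes did. Zic2 had 38.6, 11.7 and 27.7 CPM in CaPS on day 6, against 69.4, 66.9 and 59.9 CPM in WT (adjusted p = 0.839), and no member was called that day by edgeR or DESeq2, with 1 below an unadjusted p of 0.05.

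CaPS and mCaPS were compared directly on neural day 8. Mir9-3hg, Kirrel2 and Sox21 were higher in CaPS, 3 of 10 genes where 1.17% of all genes were higher. Mir9-3hg had 58.3, 1.23 and 10.1 CPM in CaPS, against 0.628, 0 and 0 CPM in mCaPS (log2 fold change 6.66 ± 1.32, adjusted p = 0.0147). Kirrel2 had 66.5, 1.02 and 7.66 CPM in CaPS, against 1.32, 0.096 and 0.42 CPM in mCaPS (log2 fold change 5.32 ± 1.17, adjusted p = 0.0222), and Sox21 had 37.0, 2.37 and 11.3 CPM in CaPS, against 2.09, 2.40 and 1.29 CPM in mCaPS (log2 fold change 3.12 ± 0.77, adjusted p = 0.0364). None of the 3 was called without CaPS replicate 1, where the log2 fold changes were 4.59, 2.77 and 1.80, and likewise none without mCaPS replicate 2 or without mCaPS replicate 3.

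**Figure D3:**
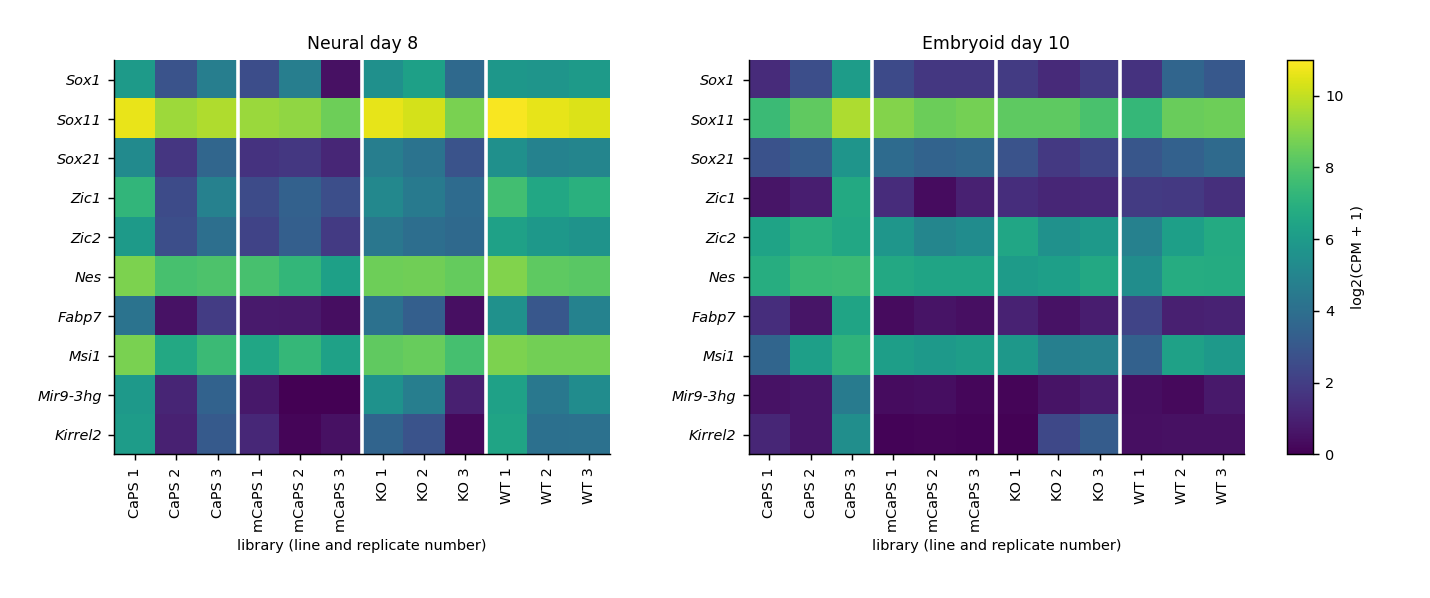
Level of each gene, log2(CPM + 1) as colour, in every library of neural day 8 (left) and embryoid day 10 (right), ordered CaPS, mCaPS, KO and WT. On neural day 8 CaPS replicate 1 resembles the WT libraries and CaPS replicate 2 the mCaPS libraries, and on embryoid day 10 CaPS replicate 3 stands out with high Sox1, Zic1, Fabp7, Mir9-3hg and Kirrel2.

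Embryoid bodies, which had no retinoic acid, held the same genes at other levels. In WT on day 10 Sox11 was highest per kilobase at 34.95 ± 14.1 RPKM, and Mir9-3hg lowest at 0.0997 ± 0.0639 RPKM. Zic1 averaged 0.967 ± 0.934 CPM on embryoid day 6 in WT and 85.8 to 150 CPM on neural day 6, while Zic2 averaged 193 ± 75.3 CPM on embryoid day 6 and 65.4 ± 4.91 CPM on neural day 6; the series come from separate tables and were not tested against each other. Kirrel2 fell away over the embryoid days in WT, with 18.04, 27.8 and 30.3 CPM on day 0, 22.3, 6.74 and 16.6 CPM on day 6 and 0.356, 0.392 and 0.420 CPM on day 10. In WT, Msi1 was lowest in the library numbered 1 on each day, with 9.56 CPM beside 77.6 and 59.9 CPM on day 10, and that library belongs to the 6 that stood apart.

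One CaPS library carried the embryoid signal. On embryoid day 10 CaPS replicate 3 had the highest level of its group for 9 of the 10 genes. It held 103 CPM of Zic1, 84.0 of Fabp7, 66.6 of Sox1, 42.6 of Kirrel2 and 22.7 of Mir9-3hg, where the other CaPS libraries held 0.562 and 0.876, 1.69 and 0.542, 1.55 and 5.29, 1.27 and 0.584, and 0.469 and 0.584 CPM of these genes. The WT libraries held 2.71, 2.51 and 1.76 CPM of Zic1 on that day and the mCaPS libraries 1.67, 0.283 and 1.02 CPM. The neuron genes summed to 1132 CPM in this CaPS library, beside 143 and 144 CPM in the other CaPS libraries. CaPS against mCaPS on embryoid day 10 is given without a test for the reason above, and the CaPS values of that day also enter the comparison with WT, whose calls are therefore a description. On day 6 the same-numbered CaPS library was likewise the highest of its group for Zic1 with 14.1 CPM, Sox1 with 28.3, Fabp7 with 3.24 and Mir9-3hg with 3.07 CPM, where the other CaPS libraries of that day held at most 0.980, 1.62, 0.551 and 1.01 CPM of these genes. CaPS against WT called no member on day 10 by edgeR, which called 0.00562% of all genes lower and none higher, with 4 members below an unadjusted p of 0.05, while DESeq2's Wald test called Fabp7, Kirrel2 and Mir9-3hg. The share of all genes called by the Wald test is not given here.

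mCaPS and KO differed in Kirrel2 on embryoid day 10. Kirrel2 had 0.0696, 0.121 and 0.0773 CPM in mCaPS (4, 6 and 4 counts), against 0.0312, 4.15 and 8.19 CPM in KO (2, 323 and 380 counts), so the groups overlapped (log2 fold change -5.49 ± 1.28, adjusted p = 0.0205). It was 1 of 10 genes where 1.41% of all genes were lower. The call was lost without KO replicate 3 (log2 fold change -4.52, adjusted p = 0.160) and without any single mCaPS library. With the replicate number as a block within pairs of lines, chosen after seeing the data, Kirrel2 was still lower in mCaPS. Sox21 was higher in mCaPS in that fit, with 13.2, 10.5 and 11.6 CPM against 5.94, 2.51 and 3.99 CPM in KO (log2 fold change 1.58 ± 0.37, adjusted p = 0.0241), where 1.29% of all genes were higher. Of all genes, 2.78% were lower in that fit.

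Against WT, no member was called in mCaPS or KO on any embryoid day by edgeR or by DESeq2. The Gapdh levels given above separate both lines from every WT library of this series, so line and library set cannot be told apart here. For mCaPS edgeR called 0.916%, 0.54% and 0.708% of all genes in either direction on days 0, 6 and 10, with 4, 0 and 1 members below an unadjusted p of 0.05. For KO it called 0.641%, 0.646% and 0.877% of all genes, with 2, 0 and 1 such members. Rn45s took 88.7% of the counts in mCaPS replicate 3 of day 0, beside 12.7% and 13.7% in replicates 1 and 2. Nes stood at 388 CPM in that library, beside 135 and 97.4 CPM. It enters every mCaPS comparison of that day, also the one with KO. On day 10 all mCaPS libraries lay below all WT libraries for Kirrel2, Fabp7 and Zic1, 3 of 10 genes where 9.46% of all genes did. Fabp7 had 0.244, 0.485 and 0.387 CPM in mCaPS, against 3.74, 0.941 and 1.05 CPM in WT. Zic2 was abundant on day 6 in both, with 251, 249.9 and 245 CPM in mCaPS and 111, 259 and 207 CPM in WT.

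**Figure D4:**
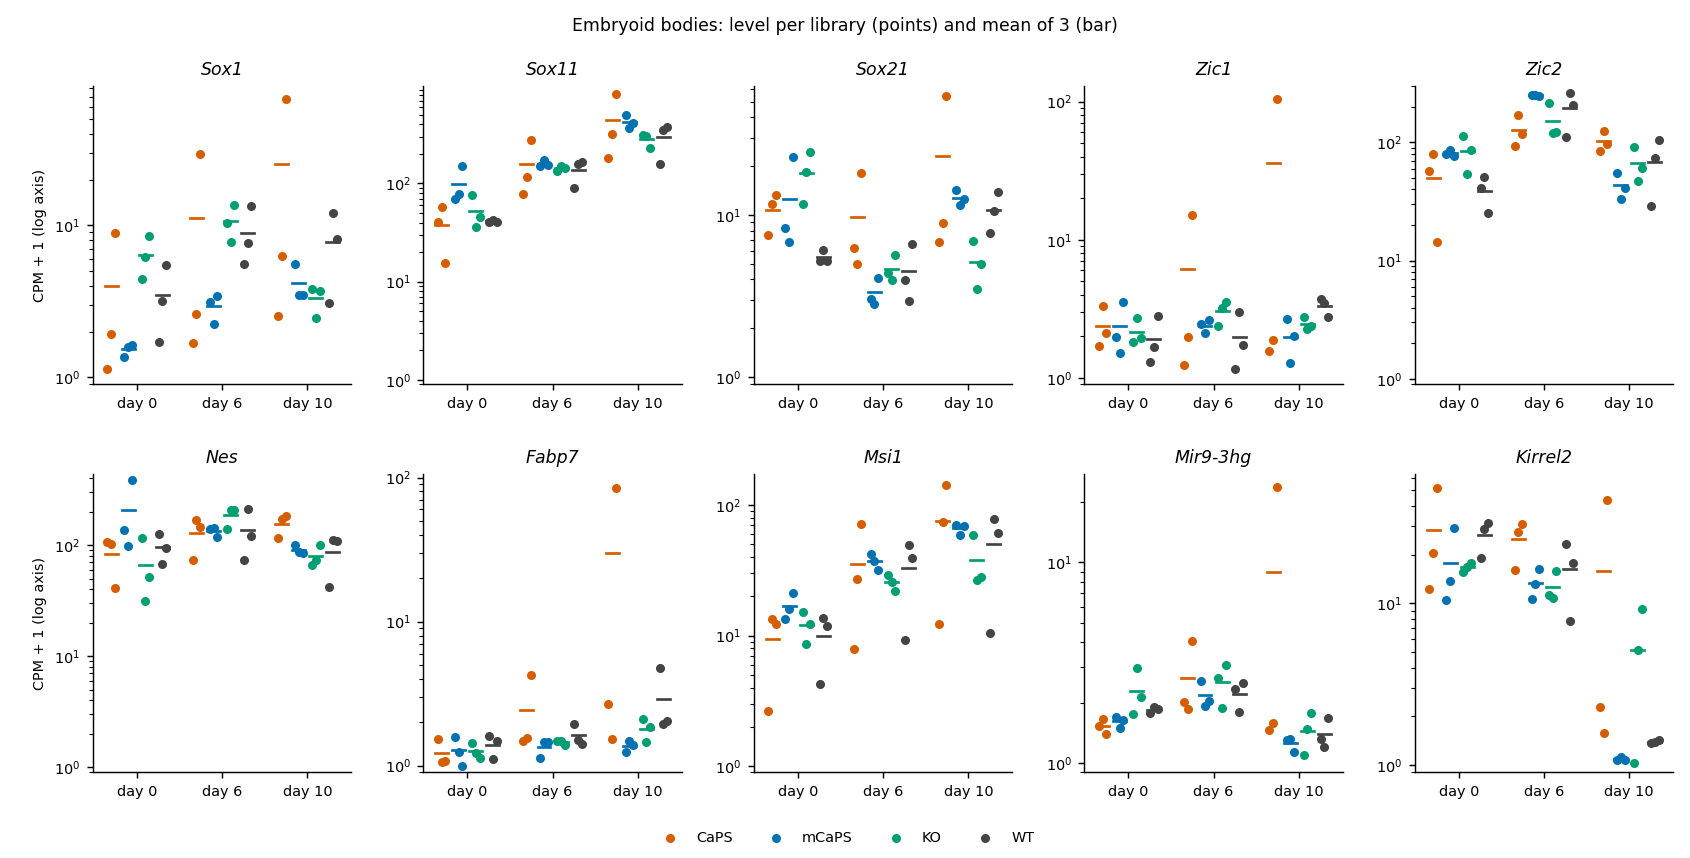
Level of each gene in every library of the embryoid series (CPM + 1, log axis) by day, with CaPS, mCaPS, KO and WT from left to right; points are libraries and bars the mean of 3. Zic1, Fabp7 and Mir9-3hg lie near the bottom of their panels except in CaPS replicate 3, which stands out on day 10 and less so on day 6.

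CaPS-R was fitted with the other lines over the genes that both tables hold, and on neural day 8 its members lay near WT. Zic1 had 131, 133 and 154 CPM in CaPS-R, against 193, 88.9 and 115.5 CPM in WT. Fabp7 had 53.3, 48.2 and 21.2 CPM in CaPS-R, against 44.95, 6.295 and 26.1 CPM in WT, and Mir9-3hg had 37.9, 38.1 and 9.35 CPM in CaPS-R, against 73.6, 18.7 and 37.1 CPM in WT. None of the 9 genes was called against WT on neural day 8 by edgeR or by DESeq2, where edgeR called 7.88% of all genes higher and 6.10% lower, with 1 of the 9 below an unadjusted p of 0.05. Against CaPS on that day edgeR also called none, with 4 of the 9 below an unadjusted p of 0.05. The shares of all genes called, or below that unadjusted p, are not given here, so 4 of 9 has no background beside it. All 9 log2 fold changes of CaPS-R against CaPS lay above 0, with a median of 1.02, against -0.097 over all genes. CaPS-R comes from a table of its own, and on neural day 0 7.72% of all genes were higher and 14.4% lower than in WT, so line and library set cannot be told apart. On neural day 6 Nes had 493, 1059 and 608 CPM in CaPS-R, against 259.8, 71.9 and 99.96 CPM in CaPS, and was higher (log2 fold change 2.32 ± 0.52, adjusted p = 0.00140). Msi1 had 332, 378 and 366 CPM in CaPS-R, against 193, 84.1 and 116 CPM in CaPS, and was higher (1.45 ± 0.42, adjusted p = 0.0126), 2 of 9 genes where 9.63% of all genes were higher. The call of Msi1 was lost without CaPS replicate 2 (log2 fold change 1.21) or CaPS replicate 3 (1.37).

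**Figure D5:**
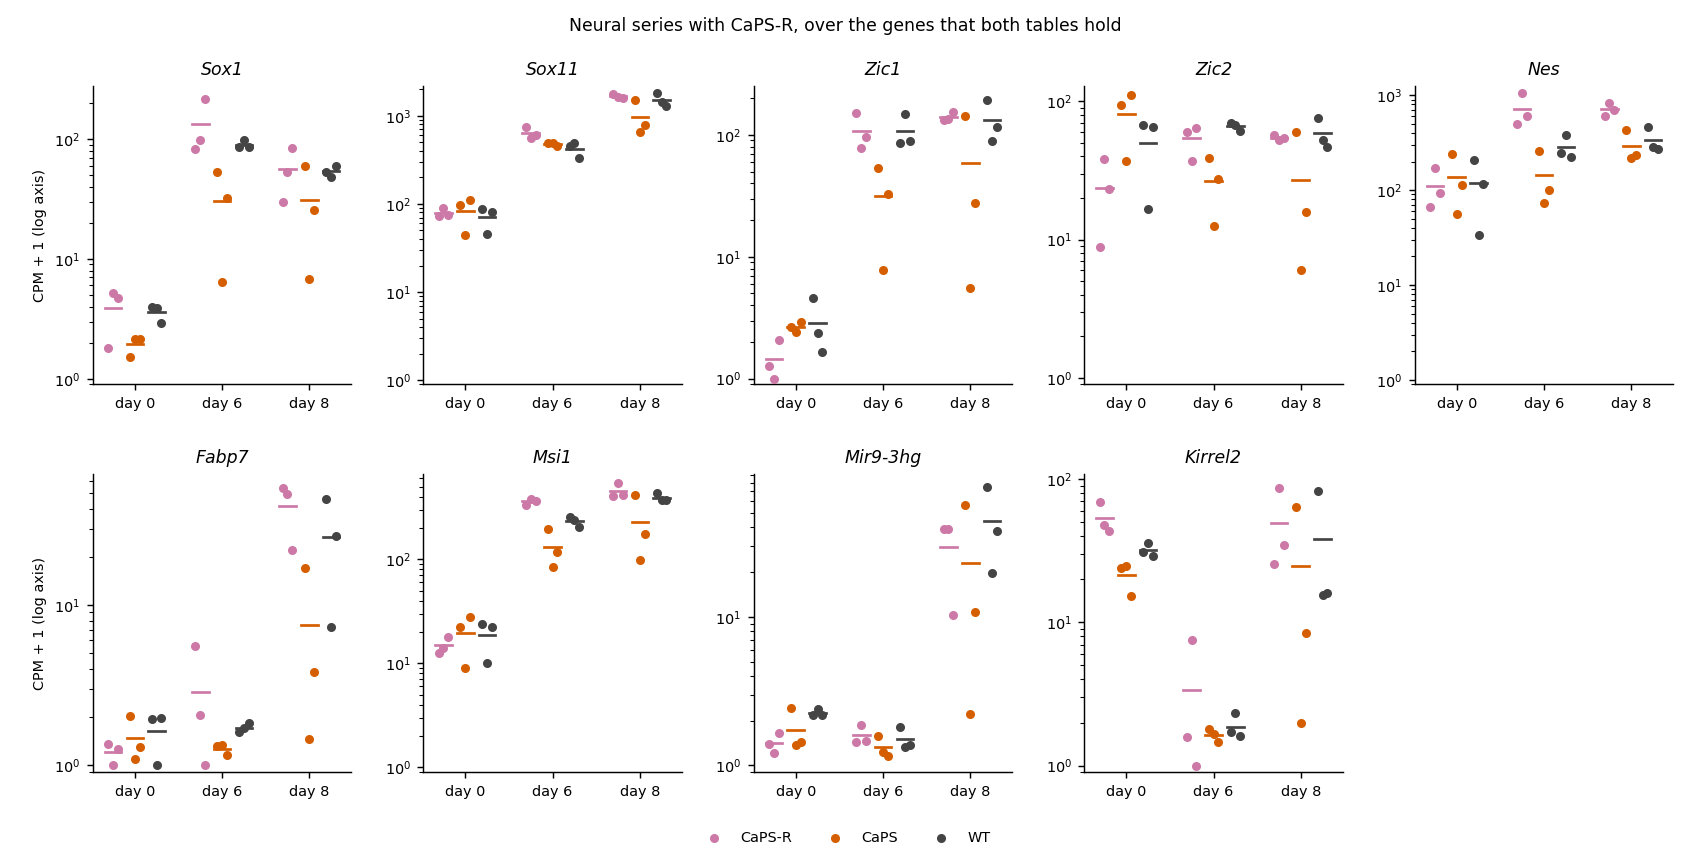
Level of the 9 genes used for CaPS-R in every library of the neural series (CPM + 1, log axis) by day, with CaPS-R, CaPS and WT from left to right; points are libraries and bars the mean of 3. On day 8 the CaPS-R libraries of Zic1, at 131 to 154 CPM, lie among the WT libraries.

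In embryoid bodies CaPS-R differed from WT in Kirrel2. On day 10 Kirrel2 had 10.96, 11.4 and 7.53 CPM in CaPS-R, against 0.367, 0.409 and 0.437 CPM in WT, and was higher without overlap (log2 fold change 4.596 ± 1.08, adjusted p = 0.00281), 1 of 9 genes where 8.24% of all genes were higher. This call held on leaving out each library of either group. Of 8 pluripotency genes, 7 were higher in CaPS-R than in WT on that day. The CaPS values of day 10 were in view when the genes were picked, so CaPS-R is set beside them without a test. Zic1 had 0.698, 0 and 1.77 CPM in CaPS-R, against 0.577, 0.918 and 106 CPM in CaPS, and the groups overlapped apart from 1 high CaPS library. Without CaPS replicate 3 the log2 fold changes were 0.24 for Zic1, 0.03 for Mir9-3hg and 0.55 for Fabp7. Zic1 on embryoid day 6 was lower in CaPS-R than in CaPS (log2 fold change -4.57 ± 1.41, adjusted p = 0.0260), where 6.93% of all genes were lower. It stood at -1.63 with adjusted p = 0.524 without CaPS replicate 3, and the call was also lost without any single CaPS-R library. Zic2 on neural day 0 had 7.89, 37.4 and 22.2 CPM in CaPS-R, against 93.1, 36.2 and 110.7 CPM in CaPS, with overlapping libraries (-1.84 ± 0.70, adjusted p = 0.0489), where 16.6% of all genes were lower, and this call was lost in 4 of 6 fits that left out 1 library.

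Across the 36 neural libraries the genes most like the mean of the 10 were Tagln3, Lhfpl4, Adgrb3, Brsk2 and Unc13b, with Pearson's r of 0.941 to 0.955 between log2 CPM values. Across the 36 embryoid libraries Phf21b, Celf3, Nhlh1 and Celsr2 were among the most alike, with r of 0.823 to 0.8601. These are descriptions over libraries that share lines, days and numbers. Among the 10 themselves, r between pairs in the neural series ran from -0.32 for Msi1 and Kirrel2 to 0.93 for Sox11 and Msi1.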

How the data were processed

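RNA-seq libraries of 30 groups with 3 each, 90 in all, were used. Per the file headers, the authors deposited whole-number read counts for each gene, with its coordinates and length. The submitters' processing notes name build mm10 and, in no order, HOMER 4.10.4, featureCounts 1.6.3, STAR 2.7.0, cutadapt 1.14 and edgeR; how read pairs and strand were counted is not given in the sources used here. In the tables Sox1 and Mir9-3hg overlap Sox1ot and Mir9-3 on the same strand and Sox21 overlaps another locus on the other strand; Zic1 and Msi1 overlap other genes in the GENCODE M21 annotation. Counts of these genes are uncertain. Another 9 columns of samples were not used.

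Genes were filtered with filterByExpr, scaled by TMM and tested by the robust quasi-likelihood method of edgeR 4.0.16 (with limma 3.58.1, under R 4.3.3). One model held the 36 libraries of a series in 12 groups (17818 neural and 17791 embryoid genes kept). For CaPS-R a model held 45 libraries in 15 groups, over the 20930 neural and 20823 embryoid genes shared by both tables before the filter. Tests were two-sided, with Benjamini-Hochberg adjustment over all genes tested, and called at 0.05. The same steps were tested on simulated data. Alternatives were DESeq2 1.42.0 (size factors, Wald test), no filter, no Rn45s, replicate blocks, leaving out each library, and leaving out the 6 embryoid libraries that stood apart. Changes over days were not tested within a line; the change from day 0 to the last day was tested between lines.

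The members and lists were chosen with earlier results of these data known. Named genes are the 10 members, up to 4 genes of each list with the smallest and largest adjusted p in the comparison told of, and the 5 genes most correlated with the members' mean in each series; other genes of counts of 5 or fewer, Sox4, Kirrel and Ccl7 were named after their values were seen. Some genes that this rule or a list names are not reported here. Same-numbered libraries were taken to deviate together where r passed 0.1 for each of the 3 numbers. This held for CaPS with WT on every day (r 0.12 to 0.75), for mCaPS with KO on 5 of 6 days (lowest r 0.0907) and for no other pair of lines tried. KO with WT on neural day 8 had r of 0.277, -0.126 and 0.225, and CaPS with KO was not tried. The labels give no reason.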

Additional observations from a re-analysis of the deposited data

Results flagged for a closer look

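The change from neural day 0 to day 8 differed between mCaPS and WT by a test of the difference itself (edgeR quasi-likelihood test of the interaction) for 7 of the 10 genes. All 7 were lower in mCaPS, where 4.82% of all genes were lower and 4.68% higher. The genes were chosen with earlier results known, and feeder fibroblast genes differed on day 0, as told above. The log2 fold change in mCaPS minus that in WT was -6.77 for Mir9-3hg, -5.21 for Sox21, -4.57 for Kirrel2, -4.23 for Zic2, -2.68 for Nes, -2.39 for Sox11 and -2.33 for Msi1. Adjusted p ran from 0.00356 for Sox21 to 0.0430 for Kirrel2. Sox11, Sox21, Zic2 and Mir9-3hg passed in each of the 12 fits that left out 1 library, whereas Kirrel2 was lost in 9, Msi1 in 6 and Nes in 4 of them. The mCaPS libraries lay below the WT libraries for all 10 genes on day 8, as for 18.3% of all genes. On day 0 they lay below for 2 of 10 and above for 3 of 10, with no share over all genes given here. These day 0 counts are therefore not read as a result about the members. Each change is taken from day 0, so the day 0 levels enter it by definition. Groups of 3 libraries were not searched for outlying samples.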

How the results depend on the processing

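Of 448 log2 fold changes of single members recomputed under an alternative, 364 kept their direction and their side of the threshold, 75 were weaker, 6 stronger and 3 reversed. The cause was not tested. These are members called in the main fits, with Sox1 and Nes for mCaPS and Msi1 and Fabp7 for CaPS, each against WT on neural day 8, added. Other uncalled members are not in this tally, so few could become stronger. CaPS-R against CaPS on embryoid day 10 is in it, though these CaPS values were known when the genes were chosen. That part of the tally is a description and gives no support. The following counts of members called are given without the share of all genes under the same setting, so they show only how calls moved. That share can move as well. For genes lower in mCaPS than in KO on neural day 6 it was 1.64% without a block and 10.1% with the block within paired lines. DESeq2's Wald test called 3 members for CaPS against WT on embryoid day 10, 1 (Nes) for mCaPS against KO and 1 (Zic2) for CaPS-R against CaPS on embryoid day 0, 4 for mCaPS against WT on neural day 6, 6 each for CaPS against mCaPS and mCaPS against KO on neural day 8, and 1 (Nes) for CaPS-R against WT on neural day 6. It gave no adjusted p for Zic1 of CaPS-R against CaPS on embryoid days 6 and 10. With the replicate number as a block over all lines, Nes (adjusted p = 0.0216) and Sox1 (0.0443) joined the 8 members called for mCaPS against WT on neural day 8, 1 member (Nes) was called for mCaPS against WT on neural day 0, 1 (Nes) and 6 for mCaPS against KO on neural days 6 and 8, 1 (Nes) for CaPS-R against WT on neural day 6, and for CaPS-R against CaPS 0 on embryoid day 6, 0 on neural day 0 and 3 on neural day 8. With the block within the lines that paired, which was chosen after seeing the data, the members called were 2 for mCaPS against KO on embryoid day 10, 6 and 9 on neural days 6 and 8, and 2 for CaPS against WT on neural day 8; it changed no other call. Without the low count filter none was called for mCaPS against WT on neural day 6, and none for CaPS-R against CaPS on neural day 0, where DESeq2's size factors and the fit without Rn45s also called none. Without that filter the calls on neural day 8 of Sox21 for CaPS against mCaPS (adjusted p = 0.0571) and Fabp7 for mCaPS against KO (0.0670), and that of Kirrel2 for the change over days in mCaPS (0.0681), were lost too. Leaving out 1 library at a time, with fewer samples in an arm and the spread shared over all groups, the members called ran from 7 to 9 for mCaPS against WT on neural day 8 and 0 to 4 on day 6, from 4 to 7 for its change over days, from 0 to 6 for CaPS against mCaPS and 1 to 6 for mCaPS against KO on neural day 8, and from 0 to 4 for mCaPS against KO on neural day 6 and 0 to 1 on embryoid days 0 and 10. They ran from 0 to 3 for CaPS against WT on embryoid day 10 and 0 to 1 on neural day 8, from 0 to 1 for KO against WT on embryoid day 10, and from 0 to 1 for CaPS-R against WT on neural day 6. For CaPS-R against CaPS they ran from 0 to 1 on embryoid days 0 and 6, 0 to 1 on neural day 0, 1 to 3 on neural day 6 and 0 to 7 on neural day 8. The log2 fold changes of CaPS-R against CaPS on embryoid day 10, which rest on CaPS values known when the genes were chosen, ran from -6.48 to 0.24 for Zic1, from -5.14 to 0.031 for Mir9-3hg and from -4.75 to 0.55 for Fabp7. Depth limits what can be said of members near 0 CPM, which rest on few counts, such as 30, 0 and 0 for Mir9-3hg in mCaPS on neural day 8.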
